A study of Mus musculus with 43 samples.

Results

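Lungs of mice treated with 2 antibodies at once, one against the cytokine IL-33 and one against the receptor chain IL-4Rα, were compared with lungs of mice treated with the antibody against IL-33 and an isotype control antibody. The libraries were chosen by the treatment in their labels, which gave 11 of the 43 libraries of the series: 5 that received anti-IL-33 with anti-IL-4Rα, called the combination, and 6 that received anti-IL-33 with isotype, called anti-IL-33. Both groups inhaled house dust mite (HDM) extract over 19 weeks. The comparison asks what blocking IL-4Rα adds when IL-33 is already blocked. According to the study design, the extract was instilled intranasally on 3 occasions per week in female mice of a hybrid 129S6/C57BL/6 background that were 8 to 12 weeks old. In antibody-treated animals Il4, Il33 and the ectodomain of Il4ra had been exchanged for human sequence, and this holds for both groups. The exchange is stated for antibody-treated animals only. Where levels are set beside saline or HDM lungs without antibody, a difference of genotype is therefore possible and was not tested. The antibodies were itepekimab against IL-33 and dupilumab against IL-4Rα. The design names several times at which antibody treatment started, and the labels of these libraries do not say which applied. Levels are also given for 19 weeks of HDM with anti-IL-4Rα and isotype antibody (n = 7), for HDM with isotype antibody only (n = 7) and for saline (n = 5). The labels do not say whether replicates were housed or processed apart, so p-values measure only the spread between these libraries.

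IL-33 is an alarmin released by damaged epithelium that drives innate lymphoid cells and T cells to make IL-5 and IL-13. IL-4Rα is the chain shared by the receptors for IL-4 and IL-13, and it signals through the transcription factor STAT6. In the lung this signal is known to drive mucus production by goblet cells, the eotaxin chemokines that attract eosinophils, and the alternatively activated state of macrophages marked by Arg1, Retnla and the chitinase-like proteins. Levels below are CPM, counts scaled to a common library total, of whole lung, where fewer cells of a type and less RNA per cell cannot be told apart.

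Total counts ranged from 15332166 to 19632516 in the combination and from 14172854 to 24341300 with anti-IL-33. Libraries differed in how far they leaned towards transcripts rich in G and C. This lean, the GC slope, is the change in a library's log2 level, relative to the mean of all libraries, per 10 percentage points of transcript GC content. It averaged 0.328 ± 0.875 in the combination and 0.267 ± 0.641 with anti-IL-33 (SD, n = 5 and 6), a difference of 0.0606 that did not exceed the spread (exact permutation test, two-sided p = 0.9, smallest possible 0.00433). Slopes above 0.75, called steep, occurred in 3 combination libraries (replicates 1, 5 and 8) and 2 anti-IL-33 libraries (replicates 4 and 5). Fits without the steep libraries leave out high slopes only. They keep combination replicate 2, whose slope of -0.993 was the lowest of the series, and combination replicate 3 at -0.149. The lowest slope among the anti-IL-33 libraries kept was -0.364. The groups were therefore not matched in GC slope in these fits, and the effect of this was not tested. Adipose genes were highest in combination replicates 1 and 8, and their part in the results below was not tested. The summed level of 7 adipose genes was 82.5 to 777 CPM in the combination and 33.6 to 158 CPM with anti-IL-33. The surfactant gene Sftpc, a marker of lung epithelium, was at 8240 to 25700 CPM in the combination and 10700 to 30300 CPM with anti-IL-33.

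Adding anti-IL-4Rα to anti-IL-33 lowered a small set of genes. Of 15979 genes tested, 7 were lower in the combination (0.0438%) and 0 were higher (0%), by edgeR's quasi-likelihood test with Benjamini-Hochberg adjusted p under 0.05. They were the eotaxin Ccl11, the ribonuclease Rnase2a, the C-type lectin Cd209e, the collagen chain Col6a5, the prostaglandin D2 receptor Ptgdr, the retinaldehyde dehydrogenase Aldh1a3 and the homeobox gene Msx3. Unadjusted p-values under 0.05 were found for 427 genes that were lower and 351 that were higher, 778 together, set against 799 for a table without any differing gene. The median log2 fold change of all genes was 0.02. DESeq2 called 22 genes lower and 2 higher, with all of the 7 among them. The count of 7 depended on single libraries. It became 1, 3, 0, 0 and 2 without combination replicates 1, 2, 3, 5 and 8. Without anti-IL-33 replicates 2, 3, 6 and 7 it became 2, 4, 4 and 4, and every gene called in these fits was among the 7. It rose to 10 and 9 without anti-IL-33 replicates 4 and 5. The spread was estimated from all 43 libraries, and a fit of the 2 groups alone called 1 gene, Rnase2a.

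Ccl11 encodes eotaxin-1, which attracts eosinophils through the receptor CCR3 (Gene ID 20292, chromosome 11, 82057832 to 82062955, GRCm38). It was at 7.36, 6.66, 2.29, 3.70 and 6.65 CPM in the 5 combination lungs, against 16.7 (lowest), 42.6 (median) and 58.6 CPM (highest) in the 6 anti-IL-33 lungs. Every combination lung lay below every anti-IL-33 lung, which was the case for 0.144% of all genes tested. The log2 fold change was -2.95 ± 0.49 (SE; adjusted p = 0.00714), a 7.73-fold lower level. It passed in 9 of 11 fits that each left out 1 library; without combination replicates 3 and 5 the adjusted p was 0.0832 and 0.0814, and it was 0.0686 in a fit of the 2 groups alone.

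No other gene of the list of eosinophil attractants passed the test. Ccl24, eotaxin-2, averaged 0.965 ± 1.05 CPM in the combination and 5.36 ± 5.40 CPM with anti-IL-33 (log2 fold change -2.56, adjusted p = 0.923). Ccl8, which in the mouse attracts type 2 T cells through CCR8, was at 25.6, 4.93, 31.1, 20.8 and 33.5 CPM in the combination, against 39.0, 69.0 and 243 CPM (lowest, median and highest) with anti-IL-33. Its groups did not overlap, a separation in this direction seen for 0.144% of all genes, and its log2 fold change of -2.11 ± 0.57 had an adjusted p of 0.375. Ccl5, which attracts T cells and eosinophils, had a log2 fold change of -0.20, which ran from -0.80 to 0.26 over the alternatives. The receptor Ccr3 was at 0.968 ± 0.331 CPM in the combination and 2.14 ± 1.40 CPM with anti-IL-33. The 5 genes of this list together summed to 19.3 to 76.5 CPM in the combination and 105 to 319 CPM with anti-IL-33. All 5 had a negative log2 fold change, with a median of -2.11, while 47.4% of all genes were negative. Of the 5, 1 passed the test, against 0.0438% of all genes called lower.

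Rnase2a, older symbol Ear11, encodes a secreted ribonuclease of the eosinophil-associated family (Gene ID 93726, chromosome 14, 51255261 to 51256112). It was at 0.932, 1.60, 0.549, 0.850 and 4.02 CPM in the combination, against 20.9, 33.0 and 52.9 CPM (lowest, median and highest) with anti-IL-33. The groups were far apart, with no overlap. The log2 fold change was -4.51 ± 0.79 (adjusted p = 0.0105), a 22.7-fold lower level, and it passed in 8 of 11 fits that left out 1 library. Without combination replicates 1, 3 and 5 the adjusted p was 0.0907, 0.108 and 0.0964. Reads of 33 bases can be shared within this gene family, and how they were assigned is not given in the sources used here, so the level of this one member is uncertain, as it is for members of the Cd209 family.

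Cd209e is a mouse relative of DC-SIGN, a lectin that binds sugars on microbes (Gene ID 170780, chromosome 8, 3847973 to 3854286). Its levels were 0.280, 0.266, 0.320, 0.182 and 0.155 CPM in the combination, against 0.740, 2.59 and 11.1 CPM (lowest, median and highest) with anti-IL-33. Combination lungs were all low and close together, while anti-IL-33 lungs spread over a wide range above them. Cd209e had a log2 fold change of -3.99 ± 0.76 (adjusted p = 0.0209), and it passed in 5 of 11 fits that left out 1 library. Its relatives Cd209d and Cd209a were at 1.11 ± 0.667 and 4.03 ± 1.70 CPM in the combination, and at 3.56 ± 1.99 and 9.20 ± 8.08 CPM with anti-IL-33, and neither passed.

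Col6a5 encodes a chain of the beaded-filament collagen VI (Gene ID 665033, chromosome 9, 105856070 to 105962463). It was at 4.10, 3.40, 2.65, 1.27 and 6.88 CPM in the combination, against 4.89, 63.9 and 80.0 CPM (lowest, median and highest) with anti-IL-33. A single combination lung, replicate 8, reached above the lowest anti-IL-33 lung. The log2 fold change was -3.74 ± 0.74 (adjusted p = 0.0267); with the replicate number of the labels as a block the adjusted p was 0.142. Of the other collagens, Col1a1 was at 823 ± 501 CPM in the combination and 718 ± 509 CPM with anti-IL-33, and Col3a1 at 707 ± 260 CPM in the combination and 911 ± 417 CPM with anti-IL-33.

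Ptgdr encodes DP1, a receptor for prostaglandin D2 (Gene ID 19214, chromosome 14, 44851235 to 44859375). It was at 0, 0.466, 0.137, 0.0607 and 0.0773 CPM in the combination, against 0.296, 2.41 and 3.2 CPM (lowest, median and highest) with anti-IL-33. The library at 0 allows up to 0.280 CPM, the worth of 3 counts. Combination replicate 2 was the only one above the lowest anti-IL-33 lung. The log2 fold change was -3.64 ± 0.72 (adjusted p = 0.0267, and 0.230 with the replicate block). The other prostaglandin D2 receptor, Ptgdr2 or CRTH2, was at 0.867 ± 0.245 CPM in the combination and 0.798 ± 0.434 CPM with anti-IL-33, and the synthase Hpgds at 9.32 ± 7.95 CPM in the combination and 8.55 ± 3.07 CPM with anti-IL-33. Of 14 measured genes of the prostaglandin and leukotriene pathway, 1 passed, against 0.0438% of all genes called lower, and the median log2 fold change was 0.06.

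Aldh1a3 makes retinoic acid from retinaldehyde (Gene ID 56847, chromosome 7, 66390892 to 66427477). It was at 0, 0.400, 0.411, 0.364 and 0.309 CPM in the combination, against 0.592, 2.20 and 3.08 CPM (lowest, median and highest) with anti-IL-33. The groups did not overlap, at a low level in both. Aldh1a3 had a log2 fold change of -2.66 ± 0.55 (adjusted p = 0.0441, and 0.131 with the replicate block). Its relatives Aldh1a1 and Aldh1a2 had log2 fold changes of -0.13 and -0.14, and the retinol carrier Rbp4 had -1.35 (adjusted p = 0.744).

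Msx3, a homeobox transcription factor gene, was at 0.0932, 0.133, 0, 0.121 and 0.155 CPM in the combination, against 0.312, 1.73 and 2.03 CPM (lowest, median and highest) with anti-IL-33 (Gene ID 17703, chromosome 7, 140046157 to 140049088). The groups did not overlap. Msx3 had a log2 fold change of -3.76 ± 0.69 (adjusted p = 0.0207). In anti-IL-33 lungs, Msx3, Col6a5, Ptgdr and Aldh1a3 were all lowest in replicates 4 and 5, the 2 steep libraries of that group; the part of library composition in these values was not tested on its own. Without the steep libraries (2 combination and 4 anti-IL-33 libraries left), the log2 fold changes were -4.88, -4.52, -3.24 and -2.67, and Ccl11 and Rnase2a were at -3.46 and -5.28. These 6 passed in that fit, and Cd209e had -4.10 with an adjusted p of 0.0551. That fit kept combination replicate 2, with its slope of -0.993, and so did not match the groups in GC slope.

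**Figure D1:**
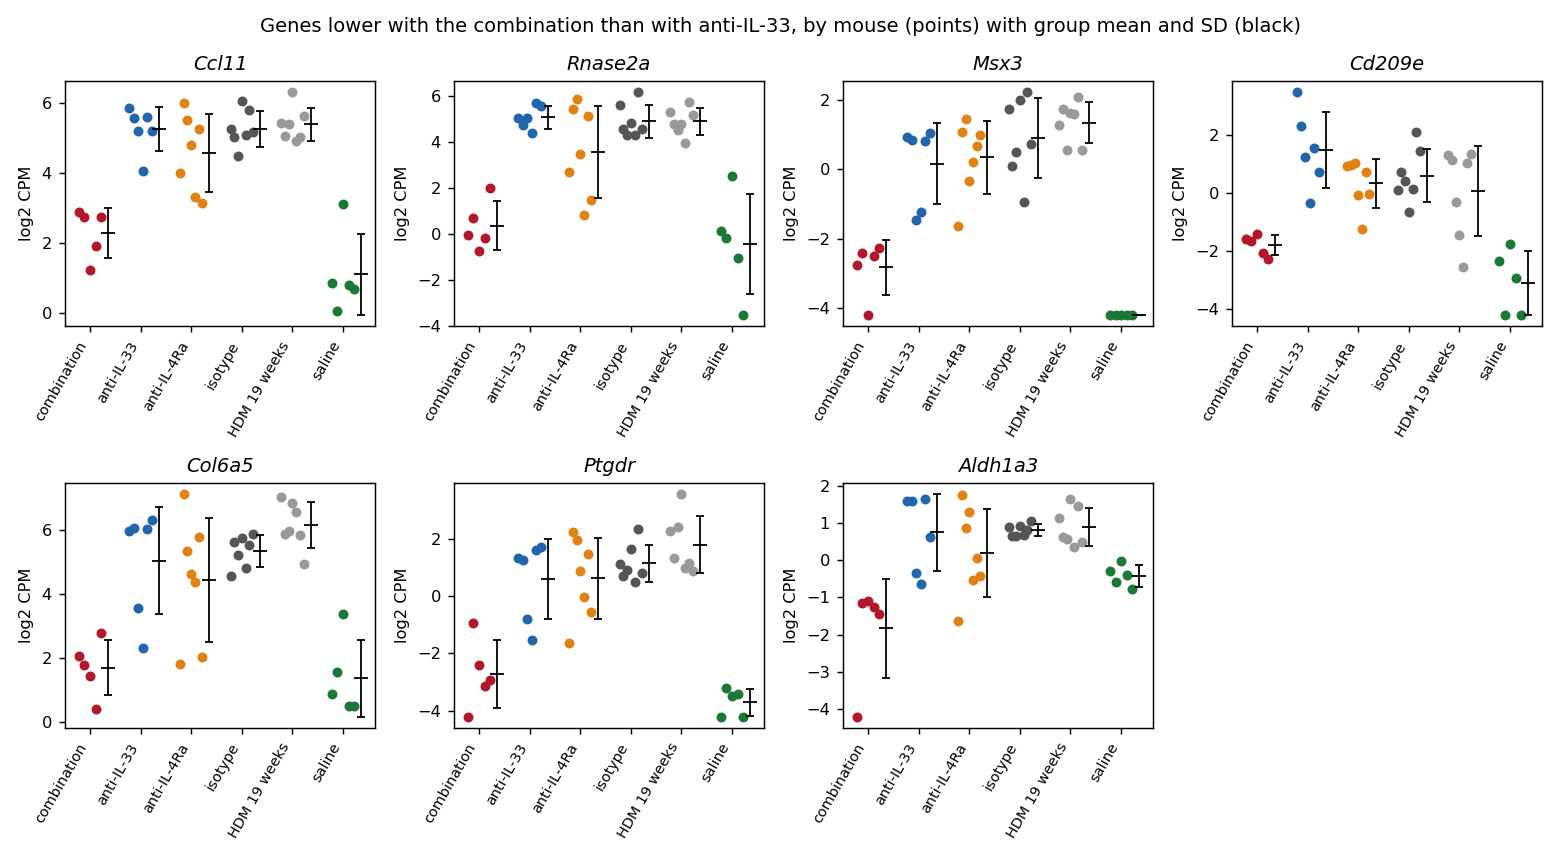
Log2 CPM (prior count of 1) of the 7 genes that passed, in each mouse of 6 groups. Points are mice and black marks are the group mean with its SD. Combination mice lie below anti-IL-33 mice with no overlap except for 1 mouse each in Col6a5 and Ptgdr. For Ccl11 they lie above 4 of the 5 saline mice and below the highest, replicate 3.

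Levels in the other groups of the series place these values, as means for 3 of the 7 genes and as summed counts for the rest. Ccl11 averaged 5.33 ± 2.21 CPM in the combination (n = 5) and 41.0 ± 14.4 CPM with anti-IL-33 (n = 6). Without IL-33 blockade it averaged 30.1 ± 20.6 CPM with anti-IL-4Rα (n = 7) and 40.8 ± 15.2 CPM with isotype (n = 7). In saline lungs it was at 1.78, 0.992, 8.57, 1.71 and 1.55 CPM, a mean of 2.92 ± 3.17 CPM (n = 5) that became 1.51 ± 0.357 CPM without replicate 3 (n = 4). All 5 combination lungs were above those 4 saline lungs. Rnase2a averaged 1.59 ± 1.41 CPM in the combination, 35.7 ± 12.1 CPM with anti-IL-33, 22.9 ± 23.0 CPM with anti-IL-4Rα, 33.8 ± 19.8 CPM with isotype and 1.60 ± 2.31 CPM in saline. Col6a5 averaged 3.66 ± 2.08 CPM in the combination, 48.7 ± 31.9 CPM with anti-IL-33, 41.4 ± 47.7 CPM with anti-IL-4Rα, 42.7 ± 13.5 CPM with isotype and 3.53 ± 3.83 CPM in saline. Anti-IL-33 and isotype means lay within their spreads of each other for these 3 genes. Saline replicate 3 was also the highest for both: without it the saline mean was 0.586 ± 0.451 CPM for Rnase2a and 1.84 ± 0.712 CPM for Col6a5 (n = 4). Msx3 was counted 0 times in all 5 saline lungs. Counts of Cd209e, not scaled to library size, summed to 509 over 6 anti-IL-33, 137 over 7 anti-IL-4Rα and 265 over 7 isotype libraries. In the same order the sums were 155, 166 and 335 for Msx3, 225, 225 and 347 for Ptgdr, and 230, 144 and 250 for Aldh1a3.

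Whether anti-IL-4Rα acts differently beside anti-IL-33 than without it was tested as a difference of effects: combination minus anti-IL-33, less anti-IL-4Rα minus isotype. The 7 genes were chosen by combination minus anti-IL-33, which is itself a part of this difference. Their differences are therefore descriptions and not independent evidence. For the 7 genes the effect of anti-IL-4Rα on its own lay between -0.62 (Msx3) and -0.05 (Col6a5) on the log2 scale. The differences were -2.51 ± 0.61 for Ccl11, -3.95 ± 0.94 for Rnase2a, -3.61 ± 0.92 for Cd209e, -3.70 ± 0.90 for Col6a5, -3.49 ± 0.87 for Ptgdr, -2.42 ± 0.68 for Aldh1a3 and -3.14 ± 0.83 for Msx3. None passed over all genes: adjusted p ran from 0.718 for Ccl11, Rnase2a and Col6a5 to 0.995 for Msx3 and Aldh1a3. Of 15979 genes 0 were called by edgeR (0%). An unadjusted p under 0.05 was found for 321, set against 799 for a table without any differing gene. DESeq2 called 3, which were Fbp1, Col6a5 and Rnase2a (limma voom with sample weights called 5521). With the replicate block 2 were called, Cd209e at -4.81 and Clca1 at -7.13 (adjusted p = 0.0301 for both). The gluconeogenic enzyme gene Fbp1 had one of the lowest p-values of this test: it was at 1.49, 0.466, 0.914, 1.52 and 0.541 CPM in the combination, against 0.729, 8.51 and 32.5 CPM (lowest, median and highest) with anti-IL-33, and its difference of effects was -4.06 ± 0.97.

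Of the 7 genes, 3 are on a list of genes known to be induced by IL-4 or IL-13, and Msx3, Col6a5, Ptgdr and Aldh1a3 are not. Lists were chosen with earlier results of these data known, so the counts below are descriptions and not independent evidence. Of the 30 genes of the list, all measured, 3 fell (Rnase2a, Cd209e and Ccl11) and 0 rose, against 0.0438% of all genes called lower. In 5 of the 30, every combination lung was below every anti-IL-33 lung, against 0.144% of all genes: the 3 above with Retnla and Arg1. A negative log2 fold change was found for 26 of 30, with a median of -1.19, while 47.4% of all genes were negative and their median was 0.02. Summed levels of the list were 5260 to 13400 CPM in the combination and 14000 to 29600 CPM with anti-IL-33. DESeq2 called 7 of the 30 lower, against 22 of all genes, and the fit with the replicate block called 4, against 5 of all genes.

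**Figure D2:**
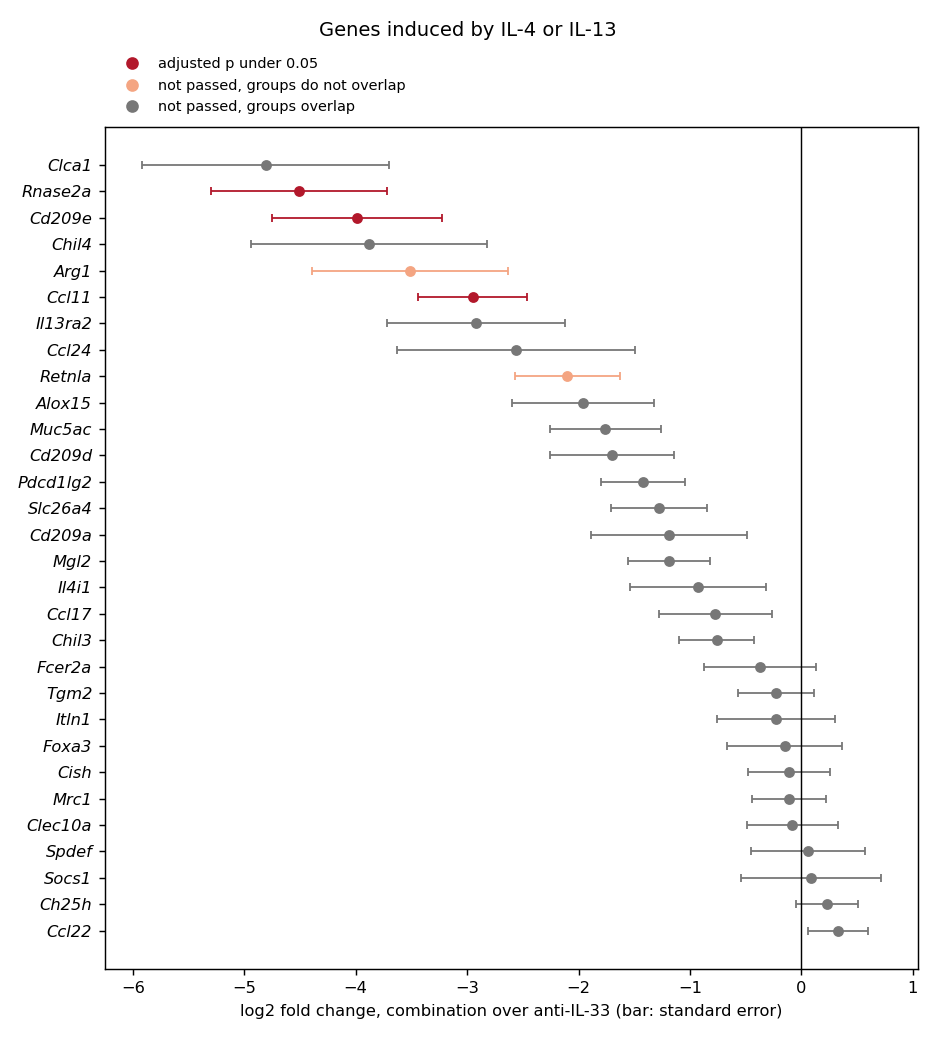
Log2 fold change of combination over anti-IL-33, with its standard error, for the 30 genes induced by IL-4 or IL-13. The 26 genes left of 0 include 3 with adjusted p under 0.05 (dark red) and Retnla and Arg1, which do not overlap between the groups but did not pass (light red).

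Members of this list differed among themselves. Retnla, which encodes the resistin-like protein RELMα of alternatively activated macrophages and airway epithelium, was at 1010, 340, 327, 623 and 769 CPM in the combination, against 1020, 2320 and 4740 CPM (lowest, median and highest) with anti-IL-33. The highest combination lung lay just under the lowest anti-IL-33 lung, and the log2 fold change of -2.10 ± 0.47 had an adjusted p of 0.0955. Arg1, arginase of alternatively activated macrophages, was at 17.9, 6.73, 9.05, 14.4 and 6.19 CPM in the combination, against 21.7, 53.9 and 421 CPM with anti-IL-33. Its log2 fold change of -3.51 ± 0.88 had an adjusted p of 0.261; the groups did not overlap, and anti-IL-33 lungs spread widely. The decoy receptor gene Il13ra2 was at 0.191 ± 0.120 CPM in the combination and 1.44 ± 0.758 CPM with anti-IL-33 (adjusted p = 0.385), and Pdcd1lg2, the ligand PD-L2, at 2.81 ± 1.25 CPM in the combination and 7.55 ± 4.32 CPM with anti-IL-33 (adjusted p = 0.375). Other members lay near 0: Mrc1 had a log2 fold change of -0.11 and Ccl22 of 0.33.

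STAT6 binds DNA at the letters TTCNNNNGAA, where N is any base, and the general STAT motif has 1 base fewer, TTCNNNGAA. Each reads the same on both strands. In the 250 bases before the start of RefSeq transcripts (GRCm38.p6), the STAT6 motif occurred in 6.76% of 27025 genes and in 5.67% of the 12530 tested genes with an entry. Of the 7 genes that fell, 5 had an entry, and 1 of these, Cd209e, held it (20%). Of the genes induced by IL-4 or IL-13, 5 of 22 with an entry held it (22.7%): Ccl17, Cd209e, Fcer2a, Pdcd1lg2 and Retnla. The general STAT motif occurred in 7.29% of the 12530 tested genes, in 1 of the 5 that fell (Col6a5) and in 3 of the 22 (13.6%). The sequences of 3 of the 5 listed genes with the STAT6 motif are shown, leaving out Ccl17 and Fcer2a. That motif is in capitals, with its place counted back from the start at -1. The sequence of Rnase2a, which fell and held neither motif, is shown beside them.
Cd209e, chr8:3854287-3854536, minus strand, motif at -79 to -70: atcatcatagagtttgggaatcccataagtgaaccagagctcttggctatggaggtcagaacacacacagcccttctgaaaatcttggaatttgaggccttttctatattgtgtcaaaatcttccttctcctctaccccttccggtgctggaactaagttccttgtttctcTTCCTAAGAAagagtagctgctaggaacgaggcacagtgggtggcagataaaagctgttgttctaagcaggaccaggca
Retnla, chr16:48842359-48842608, plus strand, motif at -145 to -136: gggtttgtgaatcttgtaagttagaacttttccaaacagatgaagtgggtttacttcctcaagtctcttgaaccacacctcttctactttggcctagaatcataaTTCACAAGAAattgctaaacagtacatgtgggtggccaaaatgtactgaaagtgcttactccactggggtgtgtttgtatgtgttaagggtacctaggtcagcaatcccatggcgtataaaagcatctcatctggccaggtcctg
Pdcd1lg2, chr19:29410669-29410918, plus strand, motif at -82 to -73: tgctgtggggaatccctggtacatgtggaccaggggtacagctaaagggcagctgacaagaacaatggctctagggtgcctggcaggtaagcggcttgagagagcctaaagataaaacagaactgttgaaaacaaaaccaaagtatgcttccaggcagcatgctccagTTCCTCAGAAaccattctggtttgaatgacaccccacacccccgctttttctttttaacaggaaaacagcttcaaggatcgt
Rnase2a, chr14:51256113-51256362, minus strand: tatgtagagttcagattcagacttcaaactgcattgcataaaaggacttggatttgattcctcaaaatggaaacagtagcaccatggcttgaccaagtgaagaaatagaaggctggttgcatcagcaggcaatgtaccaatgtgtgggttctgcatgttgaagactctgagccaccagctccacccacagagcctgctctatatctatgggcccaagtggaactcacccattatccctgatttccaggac
A match describes letters only, and the share for Cd209e, Retnla and Pdcd1lg2 is given without a test.

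Of 17 alternatively activated macrophage genes, 1 fell (Cd209e) and 0 rose, against 0.0438% of all genes called lower. There were 3 without overlap, Cd209e, Retnla and Arg1, all lower in the combination, against 0.144% of all genes, and 15 of 17 log2 fold changes were negative, with a median of -1.38. Mgl2, a galactose-type lectin, was at 25.5 ± 5.19 CPM in the combination and 58.0 ± 34.8 CPM with anti-IL-33 (log2 fold change -1.19, adjusted p = 0.566). The chitinase-like Chil3 was at 7890 ± 2950 CPM in the combination and 13400 ± 4370 CPM with anti-IL-33 (-0.76, adjusted p = 0.970). Its near copy Chil4 was at 2.52, 1.73, 5.30, 6.43 and 35.8 CPM in the combination, against 9.03, 114 and 447 CPM (lowest, median and highest) with anti-IL-33 (-3.88 ± 1.06, adjusted p = 0.383). Reads shared by the 2 copies make both values uncertain. By contrast Clec7a, the beta-glucan receptor, was at 437 ± 78.1 CPM in the combination and 373 ± 126 CPM with anti-IL-33. The 3 other macrophage lists had 0 members called by edgeR and 0 by DESeq2. Their median log2 fold changes were 0.03 for lipid-handling, 0.17 for alveolar (a list that also holds Chil3) and -0.31 for interstitial and monocyte-derived macrophage genes, and without the steep libraries they were -0.44, 0.60 and -0.07. At an unadjusted p under 0.05, 1 lipid-handling gene was higher, 1 alveolar gene was higher and 1 lower, and 2 interstitial and monocyte-derived genes were lower.

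Of 16 measured goblet cell and mucus genes, 0 passed by edgeR and 1 by DESeq2 (Clca1). At an unadjusted p under 0.05, 6 were lower and 1 was higher, against 427 and 351 of all 15979 genes. Clca1, a secreted goblet cell product, was at 9.32, 19.6, 11.4, 3.03 and 66.9 CPM in the combination, against 36.6, 526 and 1750 CPM (lowest, median and highest) with anti-IL-33. Replicate 8 was the only combination lung inside the anti-IL-33 range. Counts of Clca1, not scaled to library size, summed to 81916 over 6 anti-IL-33 libraries and 22724 over 7 isotype libraries. Its log2 fold change was -4.81 ± 1.11 (adjusted p = 0.125); it passed with the replicate block (-5.64, adjusted p = 0.0271) and with DESeq2 (-4.78, adjusted p = 0.000379). The gel-forming mucin Muc5ac was at 2.52, 12.4, 5.12, 4.67 and 6.19 CPM in the combination, against 9.06, 16.9 and 37.8 CPM with anti-IL-33 (-1.76 ± 0.50, adjusted p = 0.417). Fcgbp, Bpifb1, Tff1 and the anion exchanger Slc26a4 had log2 fold changes of -1.50, -1.49, -1.63 and -1.28. The other airway mucin Muc5b had 0.29, the goblet cell regulator Spdef had 0.06 and the goblet cell gene Agr2 had 0.11. These values moved without the steep libraries: Muc5b was then at -0.04, Spdef at -1.04 and Agr2 at -0.75, none of them called, and Fcgbp passed at -3.85 (adjusted p = 0.0221). The median of the list was -0.19, against -1.08 without the steep libraries and -0.57 with the replicate block. Dmbt1, a secreted scavenger receptor of epithelia, was higher in every combination lung: 33.5, 21.2, 35.9, 30.8 and 33.1 CPM, against 5.52, 9.12 and 18.2 CPM (lowest, median and highest) with anti-IL-33 (1.54 ± 0.55, adjusted p = 0.751), a separation seen for 0.0563% of all genes.

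**Figure D3:**
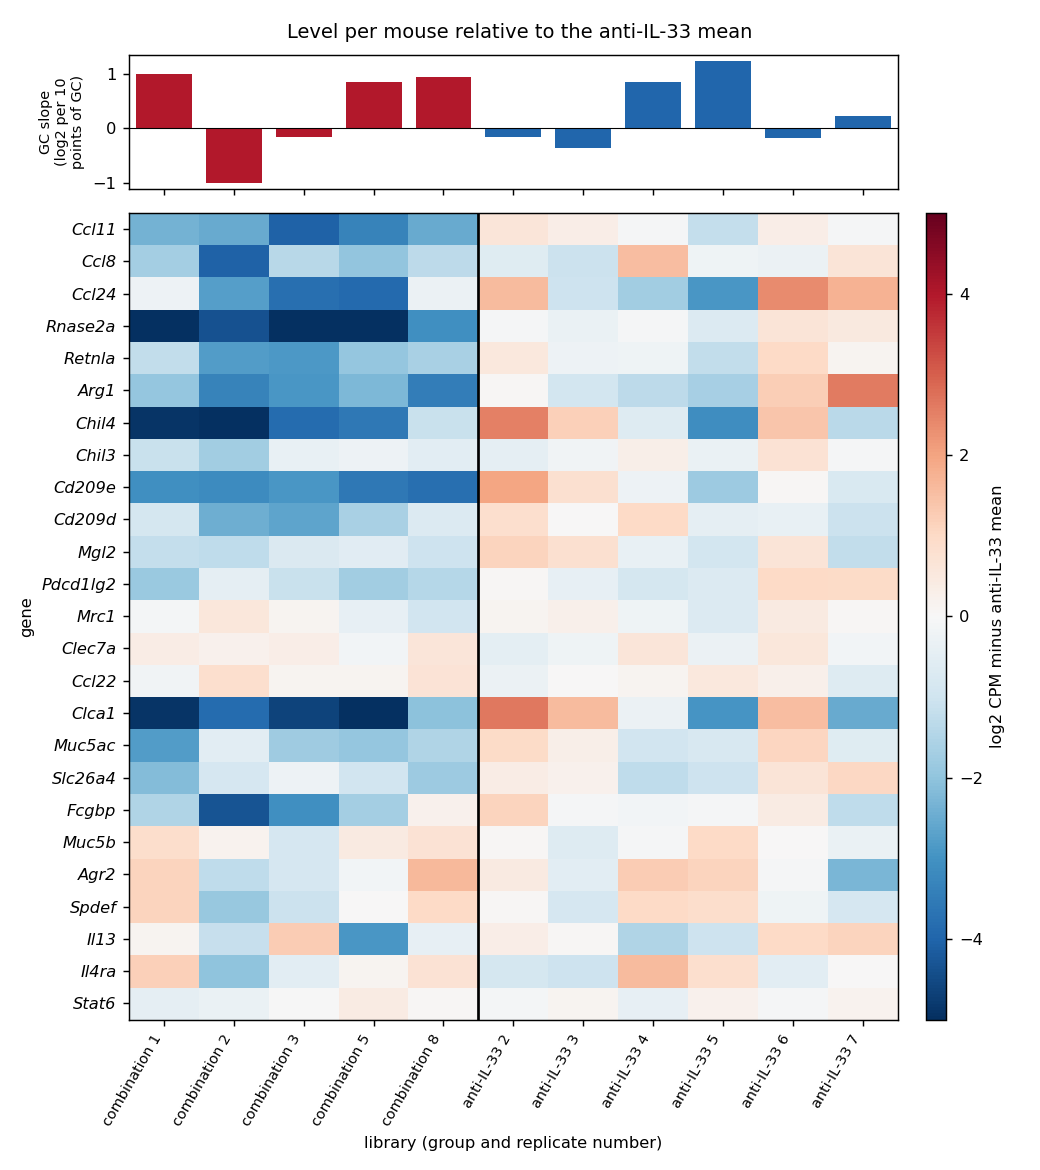
Log2 CPM of 25 genes minus the anti-IL-33 mean in each library (blue, lower; red, higher), with the GC slope of the library as a bar above (red, combination; blue, anti-IL-33). Ccl11, Rnase2a and Cd209e are blue in all 5 combination columns, while Muc5b, Agr2, Spdef and Stat6 show both colours there.

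The pathway upstream of these genes showed no called change. Of 17 measured type 2 cytokine and receptor genes, 0 passed by edgeR and 0 by DESeq2, 2 had an unadjusted p under 0.05 and were lower (Il13ra2 and Il1rl1), and the median log2 fold change was -0.05 (0.16 without the steep libraries). Il13 was at 1.40, 0.533, 3.15, 0.121 and 0.928 CPM in the combination, against 0.417, 1.48 and 2.83 CPM (lowest, median and highest) with anti-IL-33, with wide overlap. Il5 was at 0.605 ± 1.11 CPM in the combination and 0.273 ± 0.329 CPM with anti-IL-33. Il4ra was at 321 ± 212 CPM in the combination and 339 ± 263 CPM with anti-IL-33 (log2 fold change -0.08 ± 0.43), and Stat6 at 138 ± 32.8 CPM in the combination and 143 ± 21.4 CPM with anti-IL-33 (-0.05 ± 0.15). Il33 was at 12.6 ± 11.8 CPM in the combination and 12.1 ± 5.99 CPM with anti-IL-33. Il1rl1, the IL-33 receptor gene, was at 6.16 ± 5.54 CPM in the combination and 13.6 ± 9.84 CPM with anti-IL-33 (-1.14, adjusted p = 0.977). Il4 had 0 counts in both groups; the table lists mouse genes, and how reads of the human sequence were counted is not given in the sources used here, which also limits the reading of Il33 and Il4ra.

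Of 7 measured eosinophil genes Rnase2a passed, against 0.0438% of all genes called lower, 6 were negative, and the median was -0.76 (-1.18 without the steep libraries). The granule protein gene Prg2 was at 5.14 ± 4.12 CPM in the combination and 6.89 ± 2.38 CPM with anti-IL-33, and Siglecf at 8.16 ± 9.45 CPM in the combination and 8.97 ± 3.67 CPM with anti-IL-33. Epx, the eosinophil peroxidase, had 1 count over the combination and 16 over the anti-IL-33 libraries and was not tested. Of 12 mast cell and basophil genes 0 passed by edgeR and 1 by DESeq2 (Mcpt1). Of these 12, 4 were lower at an unadjusted p under 0.05, against 427 of all 15979 genes, and the median was -1.04. That median was -0.42 with the replicate block and -1.81 without the steep libraries. The mast cell proteases Mcpt1 and Mcpt2 were at 0.753 ± 0.316 and 0.608 ± 0.349 CPM in the combination, and at 6.93 ± 13.5 and 3.63 ± 6.27 CPM with anti-IL-33, where the spread exceeded the mean. These proteases are close copies whose reads can be shared. Cpa3, the carboxypeptidase of mast cells, was at 2.64 ± 2.32 CPM in the combination and 2.82 ± 3.04 CPM with anti-IL-33. Of the 12, 1 did not overlap between the groups, Tpsab1, against 0.144% of all genes lower in this way. It was near 0 in both groups, at 0.0243 ± 0.0543 CPM in the combination and 0.808 ± 0.814 CPM with anti-IL-33 (log2 fold change -4.65 ± 1.80, adjusted p = 0.823).

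Of 24 extracellular matrix genes 0 passed by edgeR and 0 by DESeq2. At an unadjusted p under 0.05, 5 were lower and 0 higher, against 427 and 351 of all 15979 genes. The median was -0.32 (-0.63 without the steep libraries). Fibronectin Fn1 was at 501 ± 229 CPM in the combination and 1180 ± 1280 CPM with anti-IL-33, and the metalloproteinase inhibitor Timp1 at 35.3 ± 19.2 CPM in the combination and 104 ± 117 CPM with anti-IL-33. Medians of T cell, B cell, NK cell, endothelial, alveolar type 1, club and ciliated cell lists lay between -0.11 and 0.24 (-0.39 and 0.19 without the steep libraries), with 0 members called by edgeR or DESeq2. At an unadjusted p under 0.05, 1 ciliated cell gene was lower and no other member of these lists was reached. Plasma cell genes had a median of -0.38, with 10 of 11 negative. Smooth muscle genes had a median of -0.48, with 6 of 9 negative. At an unadjusted p under 0.05, 3 plasma cell genes and 1 smooth muscle gene were lower and 0 of either list were higher. Neither list had a member called by edgeR or DESeq2. Over all 43 lists, 470 of 488 genes were tested and 5 were called, all lower, against 7 of all 15979 genes (0.0438%). The lists were chosen with earlier results of these data known, so this contrast is not independent evidence. Without the steep libraries 16 list genes were called, 6 lower and 10 higher, against 14 lower and 109 higher of all genes.

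**Figure D4:**
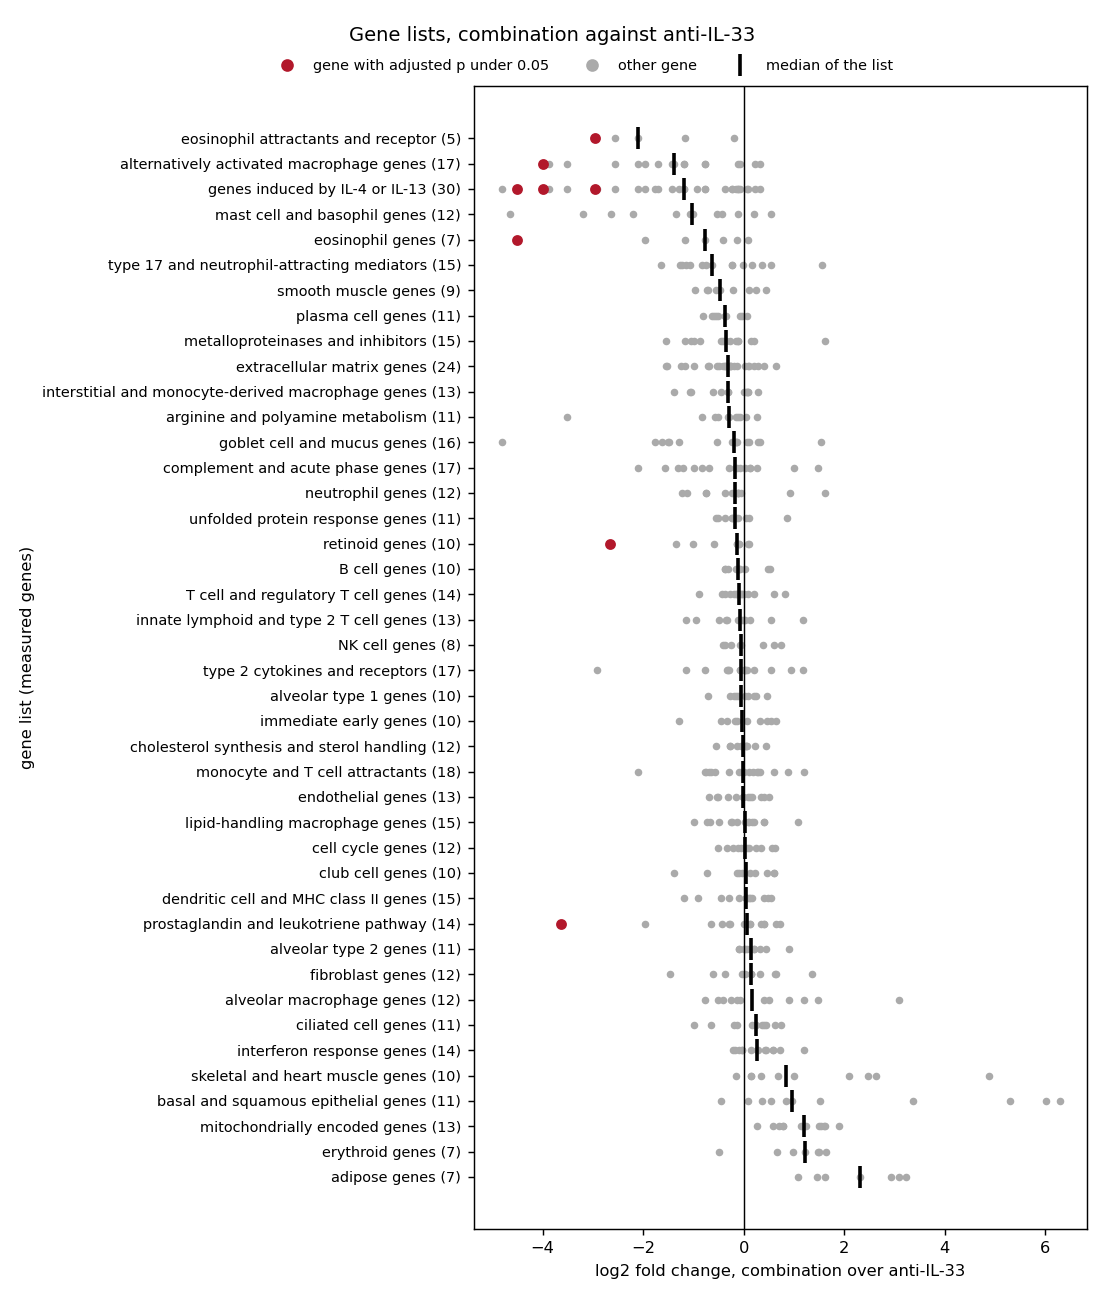
Log2 fold change of combination over anti-IL-33 for every measured gene of each list with at least 5 measured genes, with the list median as a black bar. Medians below -1 are seen for eosinophil attractants (-2.11), alternatively activated macrophage genes (-1.38), genes induced by IL-4 or IL-13 (-1.19) and mast cell genes (-1.04); the highest is that of adipose genes (2.32).

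No gene was higher at the threshold by edgeR, against 351 at an unadjusted p under 0.05, 2 by DESeq2 (Psca and TrnE) and 3736 by limma voom with sample weights. The fit without the steep libraries, with 2 combination and 4 anti-IL-33 libraries not matched in GC slope, called 109 higher and 14 lower. The 6 genes with the lowest p-values on that side were Psca, TrnE, Tbx3os2, Vnn1, Mmp8 and Xkrx, with adjusted p from 0.0955 to 0.398. Without the steep libraries 4 of them passed: TrnE (4.92, adjusted p = 0.0204), Tbx3os2 (4.62, 0.03), Mmp8 (2.24, 0.0204) and Xkrx (7.63, 0.000727, all log2 fold changes), while Psca and Vnn1 had adjusted p of 0.11 and 0.0848. The pantetheinase gene Vnn1 was at 56.0, 122, 163, 67.2 and 28.6 CPM in the combination, against 7.56, 22.2 and 48.1 CPM (lowest, median and highest) with anti-IL-33 (log2 fold change 1.80 ± 0.48, adjusted p = 0.375). The neutrophil collagenase gene Mmp8 was at 37.6, 41.3, 25.6, 24.0 and 5.96 CPM in the combination, against 3.32, 6.78 and 19.3 CPM with anti-IL-33 (1.62 ± 0.44, adjusted p = 0.375). In both, most combination lungs were above the anti-IL-33 range and replicate 8 was inside it. Psca was at 43.2, 7.79, 8.64, 17.2 and 0 CPM in the combination and at most 0.521 CPM with anti-IL-33 (adjusted p = 0.0955), while saline lungs averaged 13.8 ± 5.44 CPM. Xkrx was at 305 and 1080 CPM in combination replicates 1 and 2 and at 1.83 CPM or less in the other 3. The fit without the steep libraries kept combination replicates 2 and 3, so its call of Xkrx rests on replicate 2 alone. That fit also left out anti-IL-33 replicate 4, where Xkrx was at 101 CPM.

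**Figure D5:**
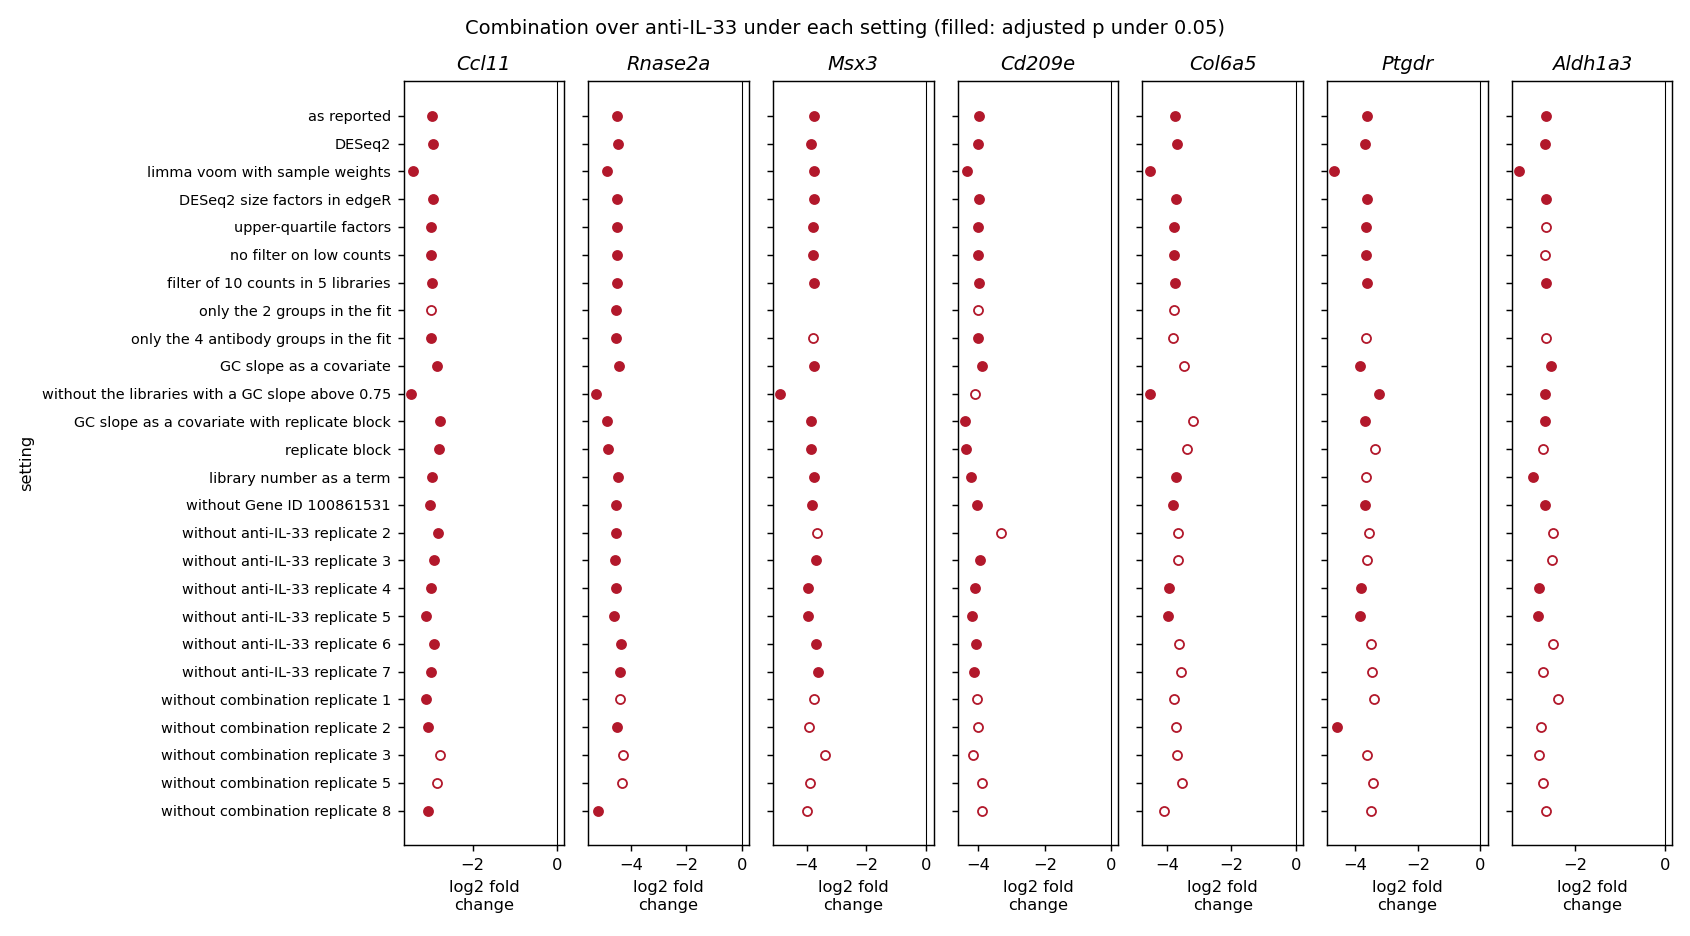
Log2 fold change of the 7 genes under the reported setting (top row) and each alternative, filled where the adjusted p is under 0.05. Every point lies left of 0, and no point is filled without combination replicate 3 or 5.

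All 7 genes kept a negative log2 fold change in every alternative that gave a value for them. Ccl11 ranged from -3.46 to -2.77 and Rnase2a from -5.28 to -4.28, and each passed in 22 of 25 alternatives. Cd209e passed in 17 of 25, Msx3 in 17 of 24, Ptgdr in 13 of 24, Col6a5 in 11 of 25 and Aldh1a3 in 11 of 24.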

How the data were processed

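RNA of whole lung was sequenced from 43 mice. TRIzol extraction, strand-specific libraries from 500 ng and single reads of 33 cycles were used, per the labels' protocols. The deposited table holds expected counts per NCBI Gene ID, which are estimated read numbers not scaled to library size; of its nonzero values 77.0% are whole (within 1e-06). The genome build was mm10, per the submitters' processing notes. For aligner, counting program and strand setting the sources used here give nothing. Symbols were found for 24375 of 24475 Gene IDs in RefSeq tables on GRCm38.p6, to which mm10 corresponds; promoter sequences are RefSeq's on that assembly.

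After rounding the expected counts, edgeR's filterByExpr kept 15979 genes; TMM factors scaled the libraries. All 43 libraries entered 1 quasi-likelihood model that gives each group its own mean (edgeR 4.0.16, limma 3.58.1, R 4.3.3, robust, 36 residual degrees of freedom), tested 2-sided with Benjamini-Hochberg adjustment. The code was tested on simulated data. Errors after a fold change are standard errors on the log2 scale, levels are TMM-scaled CPM with their SD, and log2 CPM has a prior count of 1. Floors of 3 counts cover counting error only. GC content came from GENCODE transcripts for 24081 genes.

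Named genes were the 7 that passed, the 6 with the lowest p-value per direction where fewer than 6 passed (with at least 1 CPM in a group), a fixed set of type 2 genes, and members of 43 gene lists. Members and lists were chosen with earlier results of these data known. Replicate numbers 2, 3 and 5 occur in both groups. Same-numbered libraries deviated together (Pearson r across genes 0.525, 0.647 and 0.5), so a fit with the number as a block is given where it changes a call, although for numbers 2 and 3 the anti-IL-33 library was closer to a combination library of another number. Alternatives were DESeq2 1.42.0, limma voom with sample weights, other scalings, filters and sets of libraries, the GC slope as a covariate, and leaving out each library. Figures were drawn with matplotlib 3.10.9.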

Additional observations from a re-analysis of the deposited data

Results flagged for a closer look

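Among 74 sets of values, one per group for each named gene and the GC slope, 8 held a library far from the others of its group, by the gap to the nearest library over the whole range (Dixon's test at 95%, on log2 CPM). Chance alone flags about 1 in 20 such sets. Each is given as a value, and no cause was tested.

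In the combination, Msx3 was at 0 CPM in replicate 3 and at 0.0932 to 0.155 CPM in the others, and Aldh1a3 was at 0 CPM in replicate 1 and at 0.309 to 0.411 CPM in the others. Counts of 0 there allow up to 0.137 CPM for Msx3 and 0.280 CPM for Aldh1a3 (3 counts). Psca was at 0 CPM in combination replicate 8 and at 7.79 to 43.2 CPM in the others, and Mmp8 was at 5.96 CPM in the same library and at 24.0 to 41.3 CPM in the others.

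With anti-IL-33, Ccl11 was at 16.7 CPM in replicate 5, which has the steepest GC slope of the 11 libraries (1.235), and at 36.9 to 58.6 CPM in the others. Xkrx was at 101 CPM in replicate 4 and at 1.17 to 4.06 CPM in the others. Erdr1 was at 0.342 CPM in replicate 3 and at 2.97 to 4.78 CPM in the others, and Morf4l1-ps1 was at 2.40 CPM in replicate 7 and at 7.99 to 13.7 CPM in the others.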

How the results depend on the processing

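The 7 calls stayed within 1.5 times under DESeq2 size factors, upper-quartile factors, both other filters, the GC slope as a covariate (7 calls, among them Dnajb9, higher, while Col6a5 was lost), the library number term and leaving out 1 Gene ID with a large share of the counts, an alternative chosen after seeing the data. DESeq2 called 24 (22 lower, 2 higher), the fit of the 2 groups alone 1, the fit of the 4 antibody groups 3, and the fit without steep libraries 123 (14 lower, 109 higher, from 2 combination and 4 anti-IL-33 libraries). Limma voom with sample weights called 7802 (4066 lower, 3736 higher); its weights ran from 0.0807 to 0.952 in the combination and from 0.0921 to 3.21 with anti-IL-33, and the cause was not tested. Leaving out 1 library gave 0 to 10 calls. With the replicate block 5 genes were called, 4 of them among the 7 (Ccl11, Rnase2a, Cd209e and Msx3) and Clca1; Col6a5, Ptgdr and Aldh1a3 were lost, and the block on its own changed no other call of a named gene in this comparison. With the GC slope and the replicate block together 8 were called, with Col6a5 lost and Clca1 and Fcgbp gained among named genes.

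For the difference of effects the count was 0, against 3 with DESeq2, 5521 with voom, 3 without steep libraries (Gm20337, Xkrx and Col6a5), 2 with the replicate block, 2 with the block and the GC slope (Cd209e and Clca1 in both), and 0 to 1 when 1 library was left out (Npffr2 without isotype replicate 6). Called list members numbered 5, against 12 with DESeq2, 150 with voom, 1 in the fit of the 2 groups, 3 in that of the 4 antibody groups, 16 without steep libraries and 0 to 6 when 1 library was left out. The GC slope difference of 0.0606 moved between -0.106 and 0.391 when 1 library was left out. The STAT6 motif was in 6.76% of genes before the start and in 8.01% over the whole 300 bases, a window chosen after seeing the data. Among values called in either setting, signs changed with voom: Ttc39aos1 at -2.34, Il4ra at 1.01, Il33 at -1.47 and Il13ra1 at -0.75. Uncalled values near 0 changed sign in other settings too, such as Spdef (-1.04) and Agr2 (-0.75) without steep libraries.

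With 5 against 6 lungs and a biological coefficient of variation of 0.431, changes of genes near 1 CPM or with spread-out groups, such as Clca1 and Arg1, are seen with low precision, and a gene that did not pass is not shown to be unchanged.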

Other observations

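Genes that separated the groups completely included some outside the lists, chosen here after their values were seen. Il18, a cytokine of the IL-1 family, averaged 41.6 ± 8.88 CPM in the combination and 12.6 ± 9.31 CPM with anti-IL-33 (log2 fold change 1.73 ± 0.49, adjusted p = 0.398), with every combination lung above every anti-IL-33 lung. Tnip3, an inhibitor of NF-κB signalling, averaged 4.06 ± 1.10 CPM in the combination and 10.03 ± 2.96 CPM with anti-IL-33 (-1.31 ± 0.31, adjusted p = 0.163), with no overlap. Of 15979 genes, 23 were lower in all 5 combination lungs (0.144%) and 9 higher (0.0563%).

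The 13 listed mitochondrially encoded genes, all protein-coding, had positive log2 fold changes, with a median of 1.19, and 0 passed by edgeR or DESeq2. An unadjusted p under 0.05 was found for 8 of the 13, against 351 higher of all 15979 genes. TrnE, a mitochondrially encoded tRNA gene outside this list, was called higher by DESeq2 (log2 fold change 3.35, adjusted p = 0.0219). The summed level of the 13 genes was 32700 to 238000 CPM in the combination and 17500 to 164000 CPM with anti-IL-33. ND4 was at 26700, 36600, 3260, 3800 and 5640 CPM in the combination, against 1180, 3350 and 13400 CPM (lowest, median and highest) with anti-IL-33, so that replicates 1 and 2 stood apart. Without the steep libraries the median of the list was 2.46 and 7 members were called higher, in a fit that called 109 of all genes higher. The combination side of that fit was replicates 2 and 3, of which replicate 2 stood apart. The 7 adipose genes all had positive log2 fold changes, with a median of 2.32 and 0 calls by edgeR or DESeq2 against 5 at an unadjusted p under 0.05; without the steep libraries, which include combination replicates 1 and 8, the median was 0.19. Cidec, a lipid droplet protein gene of fat, was at 104, 3.13, 8.32, 5.89 and 77.6 CPM in the combination, against 1.17, 5.20 and 7.72 CPM with anti-IL-33.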
